A study of Mus musculus with 3 samples.

Results

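The sphingosine 1-phosphate (S1P) egress genes and Cd69 were 8 genes of the 55536 annotated in the gene tables, chosen by name. They comprised the S1P receptor genes S1pr1, S1pr2, S1pr4 and S1pr5, the S1P-making kinase genes Sphk1 and Sphk2, the S1P lyase gene Sgpl1, and the retention gene Cd69. PolyA RNA was sequenced from mouse regulatory T cells described as inflammation-experienced, which came from 1 male adult donor of 16 weeks and the strain Foxp3GFP-DTRCD4CreERT2R26tdTomato. The 3 libraries, called library 1, 2 and 3 here, are technical replicates of 1 biological replicate, form 1 group and share every allele, so no contrast between conditions exists and no value speaks for other animals. The strain name joins a Foxp3-linked green fluorescent protein and diphtheria toxin receptor, a tamoxifen-activated Cre recombinase with the CD4 name, and a tdTomato reporter with the R26 name. The kind of inflammation, any tamoxifen or toxin, the organ and the sort are not stated in the labels.

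S1P is a lipid that is abundant in blood and lymph and scarce inside lymphoid tissue, and lymphocytes leave tissue by following it. S1pr1 is the receptor that drives this exit, and the Cd69 protein, induced on activation and by interferon, binds S1pr1 and takes it off the cell surface. Sphingosine kinases phosphorylate sphingosine to S1P, and the lyase Sgpl1 cleaves S1P irreversibly, which keeps tissue levels low.

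Coding sequence of 2 members is shown because the libraries differed along local GC content, described further down, and these members differ in it. Each is the 200-base stretch of coding sequence with the highest GC content, 5′ to 3′ on the minus strand of mm10, with every G and C in capitals. The S1pr1 stretch (chr3:115712353-115712552, 1 exon, 59.5% GC) and the Cd69 stretch (between chr6:129268268-129269673, joined from 2 exons, 48.5% GC) read as follows.
S1pr1: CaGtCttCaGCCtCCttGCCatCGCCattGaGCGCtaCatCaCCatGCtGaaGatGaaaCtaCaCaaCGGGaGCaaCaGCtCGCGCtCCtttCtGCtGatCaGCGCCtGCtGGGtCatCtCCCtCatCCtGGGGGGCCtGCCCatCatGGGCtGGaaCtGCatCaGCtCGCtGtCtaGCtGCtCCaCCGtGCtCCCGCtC
Cd69: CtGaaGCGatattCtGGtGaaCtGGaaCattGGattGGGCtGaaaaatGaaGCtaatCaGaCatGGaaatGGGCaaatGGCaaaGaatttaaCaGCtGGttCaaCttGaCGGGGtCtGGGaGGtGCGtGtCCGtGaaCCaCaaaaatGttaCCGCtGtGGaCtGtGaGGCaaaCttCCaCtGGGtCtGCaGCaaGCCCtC
The richest 200 bases of the whole S1pr1 transcript, at 67.0% GC, lie in its 5′ untranslated region.

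RefSeq promoters, which reach from 250 bases before to 50 bases after a start site, were matched for 6 of the 8 members on GRCm38.p6. Of these, 2 promoters are shown because both genes were expressed and their promoters stand far apart in CG dinucleotides, the motif CG searched here and printed in capitals, which reads the same on both strands. The promoter of the transcript Sphk2-201 (chr7:45715158-45715457, minus strand), 1 of 2 for Sphk2, held 27 CG dinucleotides and the S1pr4 promoter (chr10:81500088-81500387, minus strand) held 1.
Sphk2: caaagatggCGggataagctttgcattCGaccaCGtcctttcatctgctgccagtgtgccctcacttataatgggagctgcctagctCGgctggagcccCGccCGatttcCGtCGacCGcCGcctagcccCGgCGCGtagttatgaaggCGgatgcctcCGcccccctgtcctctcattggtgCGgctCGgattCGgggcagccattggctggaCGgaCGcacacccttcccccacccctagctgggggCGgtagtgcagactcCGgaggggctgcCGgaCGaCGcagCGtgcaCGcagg
S1pr4: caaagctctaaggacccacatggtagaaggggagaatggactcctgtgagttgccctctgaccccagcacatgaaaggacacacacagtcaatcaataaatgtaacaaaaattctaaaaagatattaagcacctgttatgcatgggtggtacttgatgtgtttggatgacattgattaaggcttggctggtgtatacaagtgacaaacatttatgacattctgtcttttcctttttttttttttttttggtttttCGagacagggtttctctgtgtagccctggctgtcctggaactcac
Of 32851 RefSeq promoters of the same length, 15.5% held at least as many CG dinucleotides as this Sphk2 promoter and 94.6% at least as many as that of S1pr4, and the median was 7. The other Sphk2 promoter held 33, a number reached by 8.56% of promoters. Among the members, high CG counts stood on both expressed and barely detected genes. Sgpl1, an expressed gene, had 38 CG dinucleotides, and S1pr5, listed at under 1 TPM, had 27, while the 5 promoters of Sphk1, also under 1 TPM, held 6 to 21. S1pr2 had 18.

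Levels are in TPM, the share of transcripts in a library corrected for transcript length and depth, so that genes can be compared within a library. The libraries held 17494966 to 20942875 expected counts on annotated genes. All 7 markers fixed for regulatory T cells were detected, meaning that every library had at least 1 TPM. Foxp3, the factor that defines these cells, stood at 77.6, 86.2 and 59.2 TPM and Il2ra, a subunit of the interleukin 2 receptor, at 302, 276 and 275 TPM in libraries 1, 2 and 3.

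S1pr1 was the highest member. It is a gene on chr3:115710433-115715072 (mm10, minus strand), and its level was 264, 276 and 302 TPM in libraries 1, 2 and 3, from 10316, 9897 and 10822 expected counts. Library 3 was the highest and library 1 the lowest. The mean was 281 ± 19.2 TPM (SD, n = 3), and 97.8% of the 22028 protein-coding genes lay below it. All of it was assigned to the single annotated transcript S1pr1-201. The protein-coding genes outside the lists with levels nearest to S1pr1 over the 3 libraries, by root mean square difference of log2(TPM + 1), were Itga4 (0.05), Ndufb8 (0.05) and Taldo1 (0.06). Itga4, the integrin alpha 4 chain used by lymphocytes for adhesion, stood at 269, 277 and 319 TPM.

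S1pr4, a receptor gene found mainly in blood cells (chr10:81497747-81500132, 1 exon), was the next receptor. Its level was 64.3, 69.7 and 49.5 TPM in libraries 1, 2 and 3, with library 3 the lowest. The mean was 61.1 ± 10.4 TPM (SD, n = 3), from 1384 to 1956 expected counts. S1pr1 lay above S1pr4 by 2.02, 1.97 and 2.58 on the log2(TPM + 1) scale, a mean difference of 2.19 ± 0.34 (SD, n = 3). That is more than 2 SD and more than 1, with 1 sign in each library, the rule by which 2 members are called apart here. By expected counts not scaled for length the difference was 2.56, and on the second gene table, also not scaled for length, it was 1.09. In library 1, S1pr1 had 2020 counts on the second table against 10316 on the first, and S1pr4 had 1032 against 1956. The size of the gap thus depends on the table and the scale, while its direction does not.

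S1pr2, a receptor gene known for opposing migration and for holding B cells in germinal centres (chr9:20962361-20976781), stood at 25.0, 24.1 and 23.2 TPM in libraries 1, 2 and 3. The libraries lay close together, and the mean was 24.1 ± 0.905 TPM (SD, n = 3). This level rests on a short transcript. S1pr2-204, a non-coding transcript of 419 bases, held 55.7% ± 4.40 of the gene's TPM (SD, n = 3) on 7.40% of its expected counts. The coding transcript S1pr2-201, of 6394 bases, held 90.8% ± 1.15 of the counts and 40.2% of the TPM (SD, n = 3), and its own level was 10.9, 8.80 and 9.40 TPM in libraries 1, 2 and 3. As assigned, the level of the coding S1pr2 message is about 9.71 TPM on this scale, and 24.1 TPM is that of the whole gene. The 2 transcripts share 322 bases, and 97 are found only in S1pr2-204, which held 59 to 63 expected counts a library. The share of S1pr2-204, and with it the whole-gene level, therefore rests on few reads.

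S1pr5, the receptor gene that natural killer cells use to leave tissue (chr9:21242912-21248443), was listed at 0.03, 0.03 and 0.10 TPM in libraries 1, 2 and 3, on 1, 1 and 3 expected counts. Exact 95% Poisson intervals on these counts reached up to 0.175, 0.190 and 0.299 TPM, and cover counting error only. The floor of 3 counts corresponds to 0.0940 to 0.102 TPM. No library held more than the floor. Over the libraries S1pr1 had 31035 counts against 5 for S1pr5, a ratio per length of 5076 with a counting interval of 2175 to 15635.

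Of the summed level of the 5 S1P receptor genes, 354, 370 and 375 TPM in libraries 1, 2 and 3, S1pr1 held 76.5% ± 3.37 (SD, n = 3). S1pr4 held 16.7% ± 3.08, S1pr2 6.59% ± 0.446, S1pr3 0.143% and S1pr5 0.0144% (SD, n = 3). The S1pr2 share is that of the whole gene, and its coding transcript held 40.2% of the gene's TPM. S1pr3, the receptor gene that is no member, stood at 0.31, 0.59 and 0.68 TPM. In library 3 S1pr1 took 80.4% and S1pr4 13.2%. As parts of 1 sum, these shares cannot move independently. In TPM, S1pr1 was highest in library 3, at 302, and S1pr4 lowest, at 49.5.

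Cd69 (chr6:129267325-129275436, minus strand) was the second member in order of level. Its level was 120, 115 and 119 TPM in libraries 1, 2 and 3, with a mean of 118 ± 2.91 TPM (SD, n = 3), above 93.5% of protein-coding genes. Its coefficient of variation of 2.47% was the smallest of the 8 members. The median was 11.0% over the 6427 genes whose mean count reached 500, as that of Cd69 did, and 17.8% over all 14877 genes tested. The coding transcript Cd69-201 held 90.4% ± 0.536 of the TPM and 78.3% ± 1.44 of the expected counts (SD, n = 3). Cd69-204, a transcript of 4968 bases annotated as a retained intron, held 21.3% ± 1.52 of the counts but 8.18% of the TPM (SD, n = 3). Genes near to it in level over the 3 libraries were Dpm2 (root mean square difference 0.03 on the log2 scale) and Samm50 (0.04).

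S1pr1 stood above Cd69, whose protein antagonises it, by 1.13, 1.26 and 1.34 on the log2(TPM + 1) scale in libraries 1, 2 and 3. The mean difference was 1.24 ± 0.10 (SD, n = 3), and the genes were apart by the rule. Counts of the second table, not scaled for length, gave 1.84. These are messages and not surface proteins, which were not measured.

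**Figure D1:**
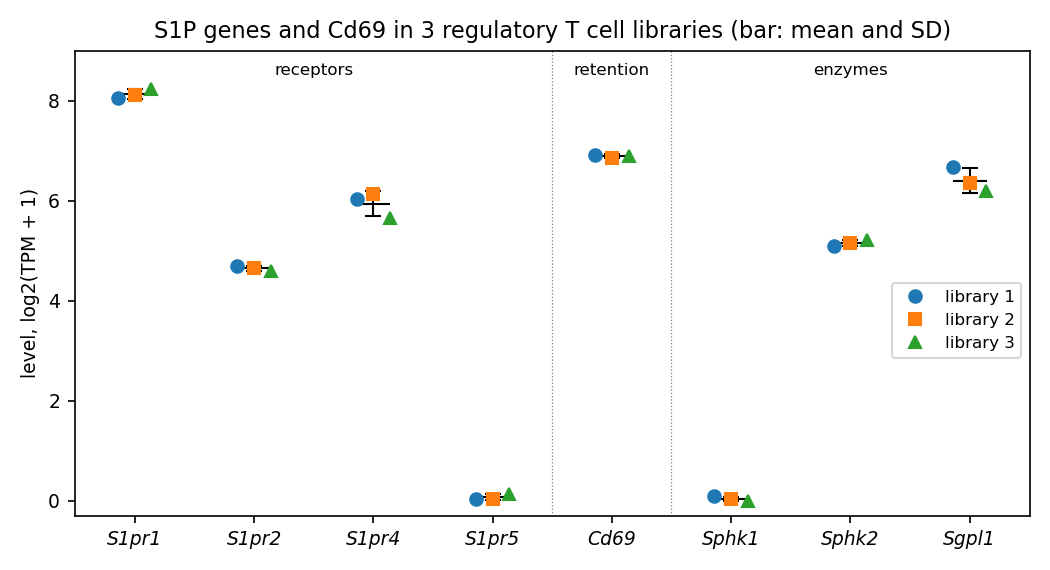
Level of each member on the log2(TPM + 1) scale, with 1 point per library and a bar for the mean and SD of the 3 libraries. S1pr1 is highest at 264 to 302 TPM, Cd69 lies within 115 to 120 TPM, and S1pr5 and Sphk1 sit at the bottom with 0 to 3 counts.

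The kinase genes stood apart. Sphk2 (chr7:45709467-45718002, minus strand), whose kinase is found partly in the nucleus, stood at 33.1, 34.5 and 36.3 TPM in libraries 1, 2 and 3, a mean of 34.6 ± 1.60 TPM (SD, n = 3). Sphk1 (chr11:116530925-116536674, plus strand), whose kinase is mainly cytosolic, was listed at 0.06, 0.02 and 0 TPM on 2, 1.02 and 0 expected counts. Exact 95% Poisson intervals reached up to 0.209, 0.175 and 0.116 TPM in libraries 1, 2 and 3, and the floor of 3 counts lies at 0.0944 TPM in library 3. The second table held 0 counts for Sphk1 in each library. Sphk2 had 3689 counts over the libraries against 3 for Sphk1, a ratio per length of 1131 with a counting interval of 387 to 5488.

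Sphk2 shares exon bases with genes on the other strand, and the labels and file headers do not say whether counting used strand. Rpl18, a ribosomal protein gene at 1254, 1399 and 1570 TPM in libraries 1, 2 and 3, overlaps 373 of the 3548 bases of Sphk2-202 and 202 of the 2577 bases of Sphk2-203. Dbp, a circadian factor gene at 7.64 to 15.8 TPM, overlaps 539 bases of Sphk2-202. Sphk2-201, whose first base on chromosome 7 is 45715207, the start site of the promoter printed above, shares no exon base with either. It held 43.7% ± 1.41 of the gene's TPM (SD, n = 3), or 15.0, 14.8 and 15.5 TPM in libraries 1, 2 and 3. Sphk2-201 alone stood above the whole of Sphk1 in every library.

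Sgpl1 (chr10:61098642-61147703, minus strand) stood at 101, 80.9 and 72.0 TPM in libraries 1, 2 and 3, with library 1 the highest. The mean was 84.5 ± 14.6 TPM (SD, n = 3). Of its 2 main transcripts, 1 varied more. Sgpl1-202 had 2943, 2029 and 1480 expected counts in libraries 1, 2 and 3, while Sgpl1-201 had 1760, 1702 and 1758. In TPM, Sgpl1-202 stood at 55.8, 41.8 and 30.5 and Sgpl1-201 at 33.6, 35.3 and 36.5, and the short transcript Sgpl1-210 added 8.08, 0 and 2.05. The 2 transcripts share 4040 bases and differ by 62 bases found only in Sgpl1-202 and 30 only in Sgpl1-201, so few reads tell them apart. Sgpl1 exceeded Sphk1 by 6.37 ± 0.20 on the log2(TPM + 1) scale (SD, n = 3), with a count ratio per length of 2770 and a counting interval of 947 to 13432.

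**Figure D2:**
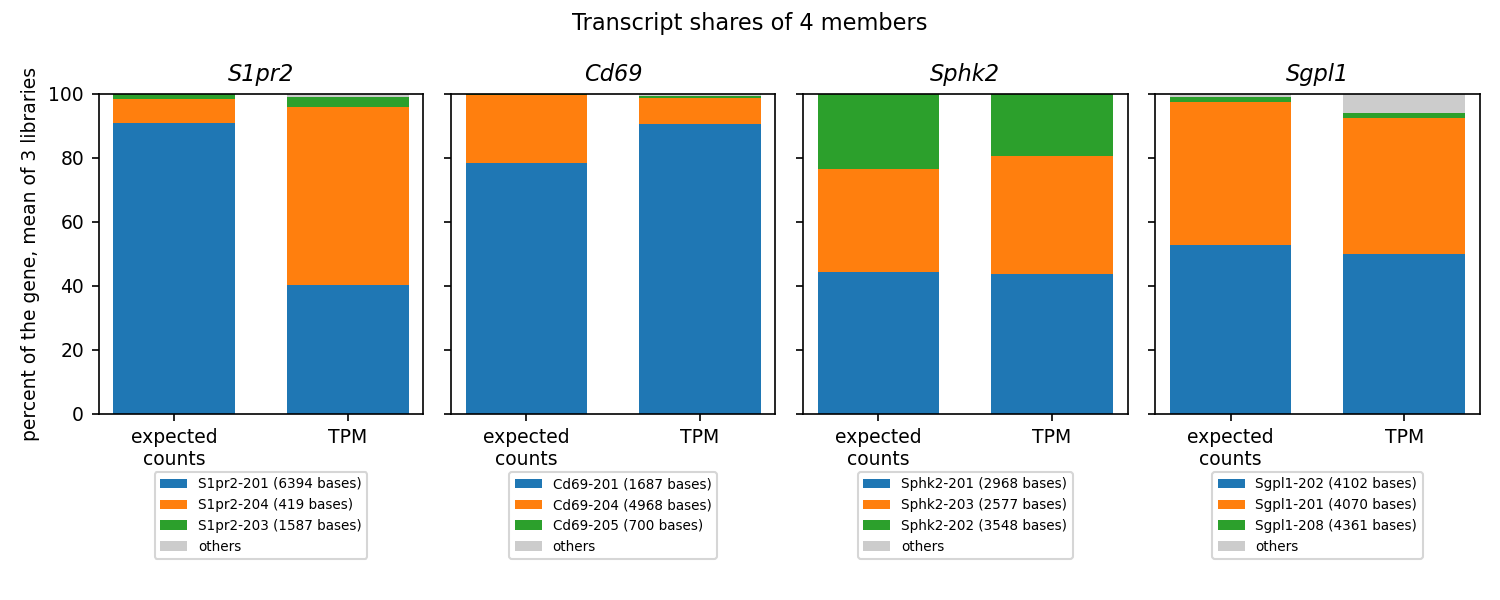
Mean percent of each gene assigned to its transcripts, by expected counts on the left of each panel and by TPM on the right, for the 4 detected members with several transcripts. S1pr2-204 goes to 55.7% by TPM, against 7.40% by counts, while Sphk2-201 holds 44.2% by counts and 43.7% by TPM.

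The members ordered by mean TPM as S1pr1, Cd69, Sgpl1, S1pr4, Sphk2, S1pr2, S1pr5 and Sphk1. Of the 7 neighbouring pairs, 6 were apart by 1 sign in each library and more than 2 SD on the log2(TPM + 1) scale. The limit of 1 was not applied to this order. S1pr5 and Sphk1 were not, with a difference of 0.04 ± 0.09 (SD, n = 3). Some gaps were small, such as 0.46 ± 0.22 between Sgpl1 and S1pr4 and 0.49 ± 0.23 between Cd69 and Sgpl1 (SD, n = 3). By share of expected counts, not scaled for length, Sgpl1 stood above Cd69. In the second gene table, also not scaled for length and compared after seeing the data, Cd69 stood below S1pr1, Sgpl1, S1pr4 and Sphk2. The place of Cd69 among the members therefore depends on the scale and the table. By the limit of 1 TPM in every library, 6 of the 8 members were detected, beside 47.4% of protein-coding genes.

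To ask whether the libraries differed, rounded expected counts were set against Poisson sampling with a Pearson chi-square test, adjusted over all 14877 genes whose mean count reached 10. This test compares libraries of 1 biological replicate and not animals. Of the 6 members tested, 5 passed an adjusted p of 0.05, and 63.0% of all genes tested did so, so the share among the members says little about them. S1pr5 and Sphk1 had too few counts to enter. Sgpl1 had the lowest p (chi-square adjusted p = 1.36e-34), with log2 deviations from the pooled libraries of 0.19, -0.02 and -0.22 in libraries 1, 2 and 3. S1pr4 deviated by 0.05, 0.20 and -0.31 (chi-square adjusted p = 8.55e-23). S1pr1 deviated by -0.10, -0.01 and 0.11 (chi-square adjusted p = 3.33e-23). These deviations are small beside the gap of 1.24 between S1pr1 and Cd69, but not beside every gap in the order. The log2 range over the libraries was 0.51 for S1pr4 and 0.41 for Sgpl1, beside a gap of 0.46 between these genes.

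S1pr2 deviated by 0.14, -0.11 and -0.06 (chi-square adjusted p = 0.00128) and Sphk2 by -0.09, 0.02 and 0.07 (chi-square adjusted p = 0.0260). Cd69 deviated by -0.01, -0.03 and 0.03 and did not pass the test (chi-square adjusted p = 0.430). Without library 1, neither S1pr2 (chi-square adjusted p = 0.628) nor Sphk2 (chi-square adjusted p = 0.471) passed. Without library 3, Sphk2 did not pass (chi-square adjusted p = 0.134). By transcript, Sphk2-202, which overlaps Rpl18 and Dbp, stood at 5.31, 7.45 and 7.40 TPM in libraries 1, 2 and 3. Sphk2-203, which overlaps Rpl18, stood at 12.8, 12.2 and 13.4 TPM, and Sphk2-201, which overlaps neither gene, at 15.0, 14.8 and 15.5 TPM. The part of these overlaps in the Sphk2 differences was not tested. Scaling by library totals alone put Cd69 past the threshold (chi-square adjusted p = 7.79e-05). The median range of the log2 deviation over the libraries was 0.23 for the 6 members and 0.47 for all genes tested, and 0.28 for the 6427 genes whose mean count reached 500.

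The second gene table, which counts the same libraries on an older annotation, put 4 of 6 members past the threshold, where 56.6% of all genes in that table passed. That table held 5056487 to 6339932 counts a library, fewer than the first, so the test had less counting power there. S1pr2 (chi-square adjusted p = 0.332) and Cd69 (chi-square adjusted p = 0.681) did not pass. S1pr2 had 345, 284 and 262 counts in libraries 1, 2 and 3 and was again highest in library 1, with a deviation of 0.10. S1pr4 was again lowest in library 3, with a deviation of -0.15, and Sgpl1 again highest in library 1, with 0.12. S1pr1 and Sphk2 were again highest in library 3, with 0.12 and 0.13.

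**Figure D3:**
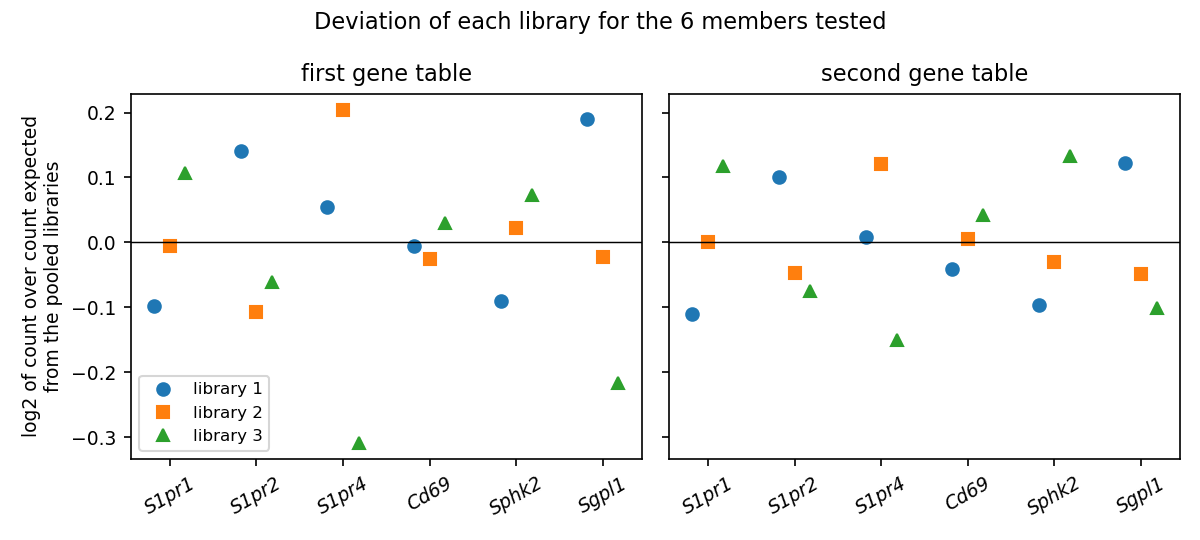
Log2 of the count over the count expected from the pooled libraries, for the 6 members tested, in the first gene table (left) and the second (right). S1pr4 lies at -0.31 and -0.15 in library 3 in the 2 tables, and Cd69 stays within 0.05 of zero in both.

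Library 3 stood apart from libraries 1 and 2 by local GC content, taken as that of the most GC-rich 200 bases in a gene's most abundant transcript. This measure was picked in earlier work on these same libraries because library 3 varied with it, so the relation is a description. Across 9990 genes, which are not independent replicates, Spearman's rho between local GC content and deviation was 0.41, 0.48 and -0.54 in libraries 1, 2 and 3. For this rho and for the trend given below, deviation was the log2 scaled count less its mean over the libraries. A fall in 1 library therefore raises the deviation of the others, so the rho values are not independent of each other. Member deviations below are from the pooled libraries, so the measures differ a little. For Sgpl1 in library 3 they were -0.20 and -0.22. S1pr4, at 70.0% local GC content, deviated by -0.31 in library 3, where the trend over all genes at that GC content was -0.30. Sgpl1 (71.0%) deviated by -0.22 at a trend of -0.40, S1pr1 (67.0%) by 0.11 at -0.07, and Sphk2 (68.0%) by 0.07 at -0.13. Cd69, at 49.5%, deviated by 0.03 at a trend of 0.12.

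With the trend removed, the deviation of S1pr4 in library 3 was -0.01. This value is too small for its sign to be read, since the trend and the deviation used different measures. Sgpl1, at 0.18, and Cd69, at -0.09, turned round in direction. S1pr1 at 0.18, Sphk2 at 0.21 and S1pr2 at -0.12 kept their direction and lay farther from zero than before. Then 6 of 6 members passed the threshold, and 58.7% of all genes did. Cd69 was among them (chi-square adjusted p = 0.00415). S1pr2 entered with 60.5% for its short transcript S1pr2-204, whereas its coding transcript S1pr2-201 reaches 70.0%, so its adjusted value depends on the transcript chosen. The part of library preparation in these differences was not tested.

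**Figure D4:**
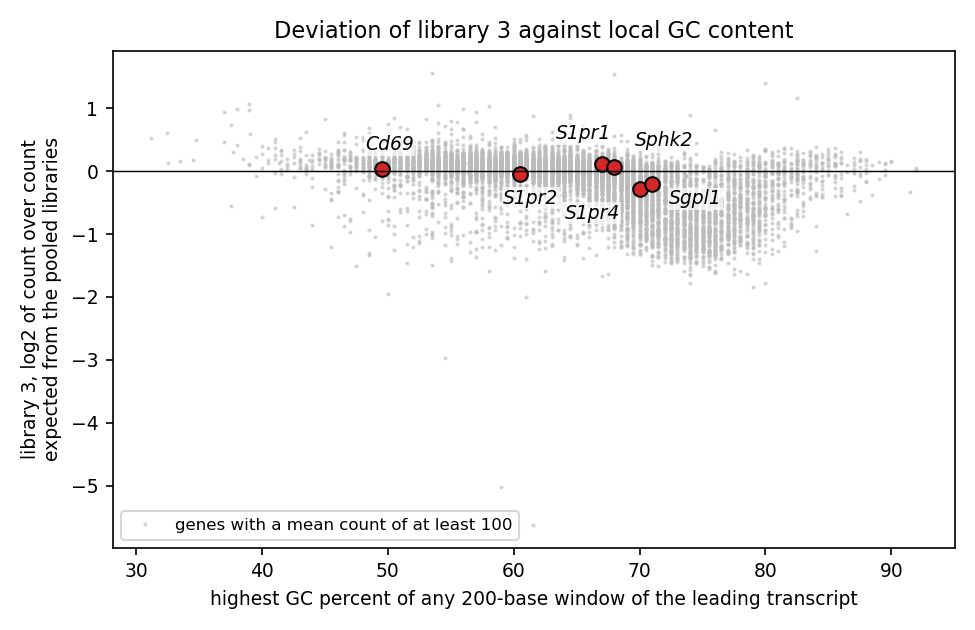
Deviation of library 3 against local GC content, for genes whose mean count reached 100 (grey) and the 6 members tested (red). The points are the log2 scaled count less its mean over the libraries, although the axis names the count expected from the pooled libraries. S1pr4 at 70.0% GC content and Sgpl1 at 71.0%, with a value of -0.20, lie where many genes are low in library 3, and Cd69 lies at 0.03.

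Of the 39 other genes listed for the S1P pathway, 31 were detected by the same limit, with a median level of 29.7 TPM. Among 22028 protein-coding genes 10436 were detected, with a median of 0.888 TPM. Between libraries 27 of the 36 list genes tested passed the chi-square threshold, and 8167 of 11805 protein-coding genes tested did.

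Genes that supply ceramide and sphingosine, the precursors of S1P, were detected in 12 of 14 cases. Cers2, a ceramide synthase, stood at 272, 226 and 250 TPM in libraries 1, 2 and 3. Degs1, the desaturase of the last step to ceramide, stood at 100.1, 98.6 and 95.3 TPM. Sptlc2, a subunit of the enzyme of the first step, stood at 109, 102 and 30.3 TPM, so library 3 was far below the other two. Under 1 TPM in every library were the ceramidase genes Asah2 (0.27 to 0.54 TPM) and Acer1 (0 to 0.04 TPM).

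Of the genes for export and removal of S1P, 4 of 9 were detected, beside 47.4% of protein-coding genes, and the median was 0.877 TPM. Spns2, the S1P exporter known from endothelium, had 1 count in library 1 and 0 in libraries 2 and 3. Mfsd2b, the exporter of red cells and platelets, stood at 0.35, 0.52 and 0.32 TPM. Apom, which encodes an S1P carrier protein of plasma, and the lipid phosphatase gene Plpp3 were also under 1 TPM in every library. Aldh3a2, an aldehyde dehydrogenase that acts after the lyase, led at 51.3, 45.2 and 40.8 TPM. Sgpp1, an S1P phosphatase, stood at 6.33, 7.25 and 6.87 TPM, and Plpp1 at 7.24, 7.64 and 4.64 TPM.

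All 15 genes of the receptor coupling group were detected, with a median of 118 TPM. Gpr183, a gene for another receptor, was listed in this group and so in the pathway list, and its mean of 118 TPM was the median. Rac2, a blood cell GTPase of cell movement, stood at 2688, 2509 and 2774 TPM in libraries 1, 2 and 3. Rgs1, which dampens signalling of Gi-coupled receptors, stood at 347, 295 and 310 TPM. Grk2, the kinase that drives S1pr1 off the surface in the presence of S1P, stood at 53.2, 47.8 and 37.7 TPM. Grk2 was lowest in library 3, and some other genes of the group were also lower there than in libraries 1 and 2. Gnai2, the inhibitory G protein subunit through which S1pr1 signals, stood at 268, 260 and 71.0 TPM, and Arhgef1, an exchange factor activated by G13, at 782, 832 and 270 TPM. Gna13 stood at 52.8, 54.2 and 33.6 TPM. The local GC content of Gnai2, Arhgef1 and Gna13 was 77.5%, 75.0% and 79.0%. Gnai2, Arhgef1 and Gna13 deviated by -1.52, -1.29 and -0.43 in library 3 on the log2 scale. Genes of the group with a higher local GC content, named after their values were seen, were mixed. Library 3 deviated by 0.07 for Gnaq (84.0%), 0.09 for Rac1 (79.5%) and -0.09 for Gna12 (85.0%). It deviated by -0.65 for Rhoa (80.5%) and -0.69 for Arrb1 (81.0%). The part of local GC content in the levels of these genes was not tested.

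Of the 21 genes listed as regulators or as companions in homing and retention, 20 were detected, and Klf4 was under 1 TPM in each library. Klf2, a factor known to drive S1pr1, stood at 10.2, 15.8 and 11.1 TPM in libraries 1, 2 and 3. Foxo1, which acts upstream of Klf2, stood at 11.2, 13.5 and 13.7 TPM. S1pr1 exceeded Klf2 by 4.42 ± 0.33 on the log2(TPM + 1) scale (SD, n = 3). Ccr7, the chemokine receptor of lymph node entry, stood at 327, 420 and 478 TPM. Stat3 stood at 298, 237 and 107 TPM.

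Genes known from tissue-resident cells were also detected. Itgae, the integrin alpha E chain, stood at 78.1, 53.3 and 51.5 TPM in libraries 1, 2 and 3, and Cxcr6 at 17.7, 40.4 and 47.3 TPM. For both genes library 1 stood outside the other libraries, in opposite directions. In a bulk sample, fewer cells of a type and less RNA per cell cannot be told apart, so it is not known whether S1pr1, Cd69, Itgae and Cxcr6 came from the same cells.

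**Figure D5:**
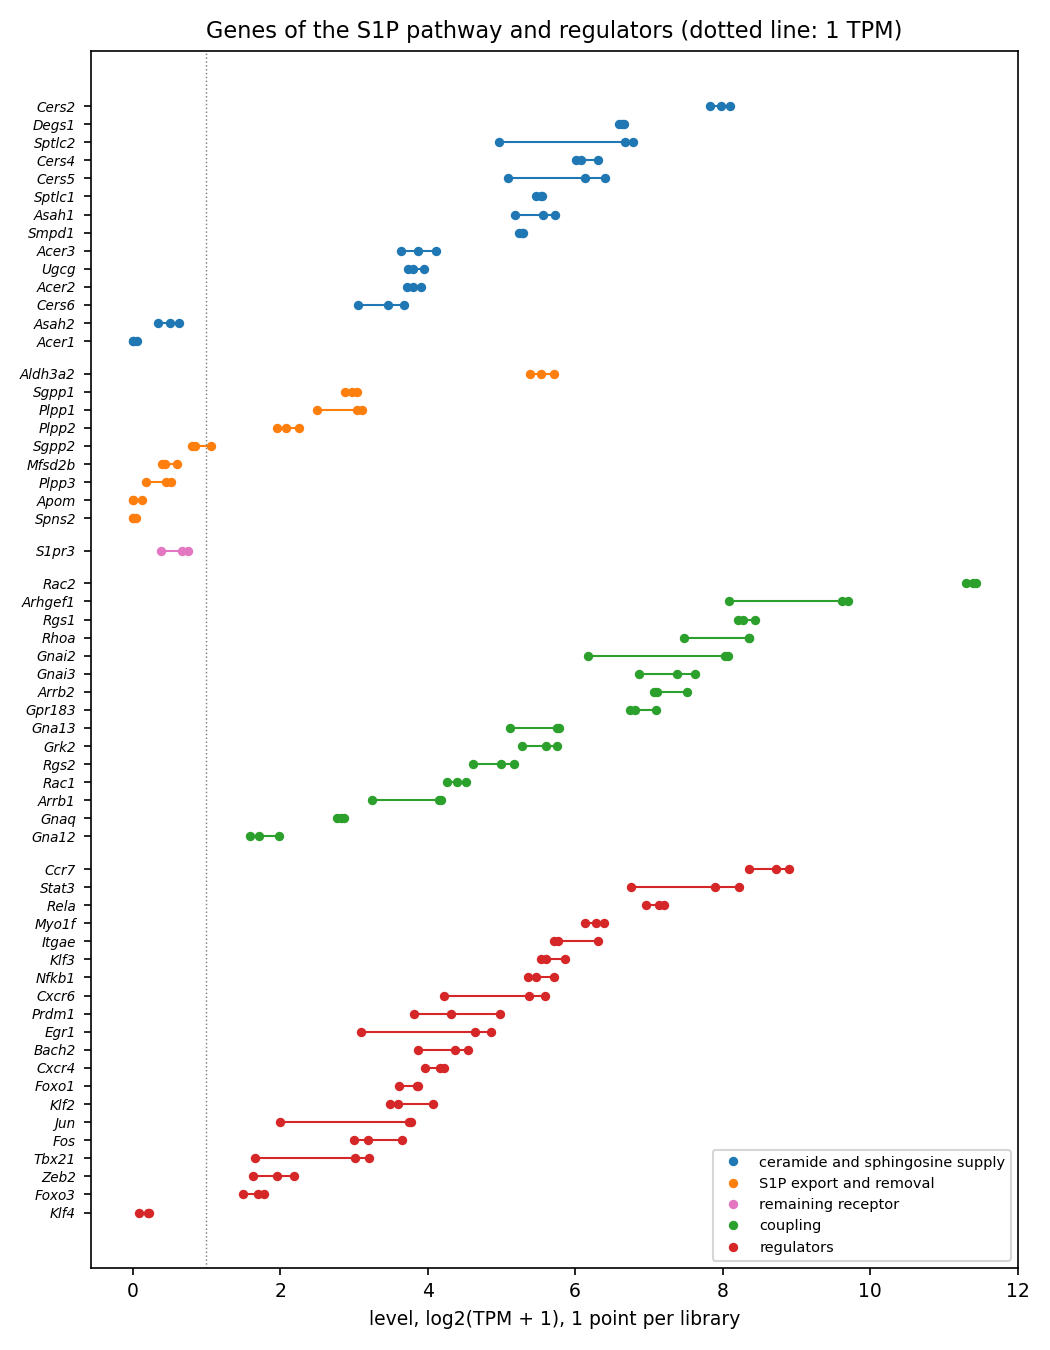
Level of genes of the S1P pathway lists and the regulators on the log2(TPM + 1) scale, with 1 point per library and a line over their range; the dotted line marks 1 TPM. Coupling genes all lie right of it, while 5 of 9 export and removal genes have at least 1 library left of it.

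Markers of other cells were read beside the member levels. Of the B cell markers 5 of 6 were detected, with sums of 1374 to 1775 TPM that were nearly all Ighm, while Pax5 stood at 0.35 to 0.90 TPM. Of the natural killer cell markers 2 of 5 were detected, with sums of 107 to 142 TPM beside S1pr5 at 0.03 to 0.10 TPM. Nkg7, which cytotoxic and activated T cells also express, made up most of the sum at 102 to 136 TPM, Klrb1c stood at 3.13 to 5.05 TPM, Ncr1 at 0 to 0.06 TPM and Klra8 at 0. Of the endothelial markers 1 of 5, Pecam1, was detected, with sums of 92.4 to 112 TPM, and Cdh5 was at 0 in each library. Macrophage markers were detected in 5 of 5 cases with sums of 33.3 to 45.3 TPM, CD8 T cell markers in 1 of 2 with sums of 16.7 to 22.3 TPM, and erythroid and platelet markers in 4 of 5 with sums of 616 to 1018 TPM. The part of B cell, macrophage or red cell RNA in the levels of S1pr1, S1pr4, Cd69 and Mfsd2b was not tested.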

How the data were processed

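PolyA RNA of 3 libraries was measured; the labels give technical replicates 1 to 3 of 1 biological replicate. For each library the authors deposited gene and transcript tables with expected counts, TPM, FPKM and, for transcripts, the percent of the gene, on mm10 and GENCODE M21, per the deposited text. A second deposited gene table holds whole-number counts on mm10 and GENCODE M4. No source used here gives the aligner, counter or strand setting. Expected counts were rounded before tests. Library sizes were scaled by TMM (edgeR 4.0.16), and genes whose mean count reached 10 entered a chi-square test (scipy 1.17.1) with 2 degrees of freedom and Benjamini-Hochberg adjustment. The test was tried on simulated data; a first limit on the share of changed genes recovered was missed, with the misses among genes of low count, and was replaced by the number expected from counting power. The annotation file was changed, to keep genes on scaffolds, after results had been seen. Alternative size factors came from DESeq2 1.42.0 on the same genes, a limit set after its output was seen. Trends on local GC content were lowess curves (fraction 0.3). Floors are 3 counts; intervals and floors cover counting error only, since no molecular identifiers are described. Members, lists and the GC measure were chosen with earlier results of these data known. Named genes are the members, the 3 highest genes of each list, those under 1 TPM in every library, a fixed set of list genes, the 3 genes nearest to S1pr1 and to Cd69, and the markers. Some items that these choices take in are left out of the text.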

Additional observations from a re-analysis of the deposited data

How the results depend on the processing

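No paired analysis was possible because the series holds 1 group. Genes differing between libraries numbered 9371 of 14877, against 6207 of 10964 in the second gene table and 4523 to 7845 when 1 library was left out. The lowest, 4523, was without library 3. Members differing numbered 3 to 5 when 1 library was left out, with 3 without library 1, against 5 with all libraries; other scalings, filters, the second table and removal of the GC trend gave 4 to 6. Sphk2 did not pass without a filter on low counts (adjusted p = 0.0515, chi-square). The log2 difference of S1pr1 to Cd69 was 1.91 by expected counts not scaled for length and 1.84 in the second table, against 1.24. That of S1pr1 to S1pr4 was 2.56 and 1.09 by the same scales, against 2.19. S1pr1 to Klf2 was 4.05 with a pseudocount of 5 TPM and 5.17 by expected counts not scaled for length, against 4.42. Sphk2 to Sphk1 was 8.12 and 2.98 with pseudocounts of 0.1 and 5 TPM, 4.53 by FPKM, 5.98 by expected counts not scaled for length and 7.01 in the second table, against 5.12. Sgpl1 to Sphk1 was 9.40, 4.14, 5.77, 7.65 and 7.76 in the same order, against 6.37. The value against Sphk1 rests on the pseudocount by construction, since Sphk1 had 0 to 2 counts a library. The causes of the other shifts were not tested. The median share of the leading transcript was 65.5% by expected counts, against 52.7% by TPM. None of these 5 log2 differences reversed, but neighbours in the order did: Sgpl1 stood above Cd69 by expected counts not scaled for length, and Sgpl1, S1pr4 and Sphk2 did so in the second table. TPM over nuclear protein-coding genes raised the 6 detected members alike, S1pr1 to 343 TPM. At 0.5 and 5 TPM the pathway list had 32 and 28 genes detected, against 31, and the regulators 20 and 16, against 20. Depth limits S1pr5 and Sphk1, which lie at or under the floor.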
